A study of Mus musculus with 8 samples.

Results

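Glutathione is the main soluble thiol of animal cells. Glutamate-cysteine ligase carries out the first and rate-limiting step of its synthesis, glutathione reductase returns the oxidised form to the reduced one, and glutathione transferases attach it to reactive compounds. The transcription factor Nrf2, encoded by Nfe2l2, is held in the cytoplasm and marked for degradation by Keap1. Under oxidative or electrophilic stress it enters the nucleus, pairs with small Maf proteins and binds antioxidant response elements near genes of glutathione synthesis, thioredoxin reduction, quinone reduction and heme breakdown. Mutant SOD1 is a cause of familial amyotrophic lateral sclerosis, and oxidative stress has long been studied in its models.

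The genes described here are 10 of the 34821 gene names on the array, and each was represented by every probe that carries its name in the scanner files, 14 probes in all. They are Gclc, Gclm, Gsr, Srxn1, Hmox1, Nqo1, Txnrd1, Cat, Gstm1 and Gstt2. The genes were selected by name and role with both the genotype comparison and the nerve-to-pool ratios of these arrays already known, so those values are given as a description. Calls from the limma fit over all genes are printed for them too, but are no independent test of these 10 genes. All 14 probes were well above background in nerve RNA on all 8 arrays, so all 10 genes passed the filter on dim probes, which left 15343 gene names.

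Sciatic nerve RNA came in 4 samples from male SOD1G93A transgenic mice and 4 samples from male wild-type (WT) mice, all aged 60 days. The series title calls this age presymptomatic. The sample titles do not give the number of mice per sample. SOD1G93A mice carry a human SOD1 gene with an amyotrophic lateral sclerosis mutation under its own promoter, which is active broadly and not in neurons alone. The strain background and the transgene's copy number are not given in the sources used here. On every array the nerve RNA was labelled with Cy3 and a common pool of RNA from neonatal heart, liver and kidney of both genotypes with Cy5. Every level below is therefore the log2 ratio of nerve to that pool, and a difference is SOD1G93A minus WT on that scale. The dyes were never swapped, so dye and RNA source cannot be told apart in the level, although both enter the genotype difference alike. The arrays shared 1 slide, with a different first position number for each genotype, so slide position cannot be told apart from genotype.

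In the nerve channel, 35.5% to 41.7% of the spots on an array passed the scanner's background test, and saturation was seen at 0 spots. Markers of Schwann cells, the glia that wrap peripheral axons, were all measured (10 of 10) with a median level of 4.5 over the pool, while 4 heart markers had a median of -4.09. Of 5 liver markers Afp, Apoa1 and Ttr, and of 4 kidney markers Slc12a1 and Nphs1, were not well above background in nerve on any array. SOD1G93A replicate 1 and WT replicate 1 stood apart. SOD1G93A replicate 1 scored 30.3 and WT replicate 1 -33.7 on the first principal component (36.4% of variance), against 2.88 to 10.8 for the other SOD1G93A arrays and -14.7 to 6.09 for the other WT arrays. Median Cy3 intensity on kept probes was lowest on SOD1G93A replicate 1 (342.3) and highest on WT replicate 1 (682.9). Values are therefore also given for the 6 arrays numbered 2 to 4. In whole nerve, fewer cells of a type and less RNA per cell cannot be told apart.

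Probe positions in the files are on mouse build mm9, and each probe is 60 bases long. The accessions of all 14 probes matched a transcript of the same symbol in the RefSeq gene table (GRCm38.p6). Gclc is measured at chromosome 9, 77641296 to 77641355, and Srxn1 at chromosome 2, 151937009 to 151937068. Txnrd1 is measured at chromosome 10, 82360230 to 82360289, and Nqo1 on the minus strand of chromosome 8, 109912440 to 109912499. The Gsr probes lie on chromosome 8 from 34808488 to 34808547 and from 34808413 to 34808472, which overlap none of each other's bases. Exon and UTR annotation on mm9 was not used here. The Gclm probe spans 2636 bases of genome and the dimmer Cat probe 3343, so both cross at least 1 splice junction. The 4 probe sequences below are shown because the Gstt2 probe carries the difference seen most clearly, the dimmer Hmox1 probe departs from its partner, and the other pair read spliced transcript. Each leaves at least 1 reading frame free of stop codons. They are given as the scanner files list them, with no base singled out.
Gstt2 A_51_P350048 (mm9 chr10:75295206-75295265, minus strand): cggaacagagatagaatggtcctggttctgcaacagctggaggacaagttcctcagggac
Gclm A_51_P320089 (mm9 chr3:121962174-121964809, plus strand, spliced): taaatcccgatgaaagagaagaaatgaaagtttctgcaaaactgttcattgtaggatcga
Cat A_51_P191611 (mm9 chr2:103297086-103300428, minus strand, spliced): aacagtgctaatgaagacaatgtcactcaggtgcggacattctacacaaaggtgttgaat
Hmox1 A_55_P2029687 (mm9 chr8:77620797-77620856, plus strand): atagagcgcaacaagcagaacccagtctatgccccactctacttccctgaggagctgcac

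The core of the antioxidant response element, searched as TGACNNNGC on both strands, was looked for in the 250 bases before the gene starts of the RefSeq promoter table (GRCm38.p6). That table holds 9 starts of 6 of these genes, namely Cat, Gclm, Gstm1, Nqo1, Srxn1 and Txnrd1. Gclm and 1 of 3 Txnrd1 starts had a match, as did 10.2% of all 32851 promoters. The related AP-1 letters, TGANTCA, which read the same on both strands, were found only before Srxn1, at 2 places, against 6.75% of all promoters, and none of these overlapped a TGACNNNGC match. The nearer Srxn1 match is followed by GC, so it differs from TGACNNNGC at 1 base, the G after TGA. The search did not count such variants. The matches are shown in capitals with 20 bases on each side, because they are the letters by which Nrf2 and AP-1 partners are known to bind. A match is a description of the sequence and not evidence of binding. Bases beyond these 250 were not searched, so a start without a match may still have an element elsewhere.
Gclm (GRCm38.p6 chr3:122245403-122245451, plus strand, match from 134 to 126 bases before the start): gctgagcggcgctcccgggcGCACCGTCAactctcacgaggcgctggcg
Txnrd1 (GRCm38.p6 chr10:82859094-82859142, plus strand, 92 to 84 bases before the start): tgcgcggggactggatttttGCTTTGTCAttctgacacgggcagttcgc
Srxn1, farther match (GRCm38.p6 chr2:152105402-152105448, plus strand, 102 to 96 bases before the start): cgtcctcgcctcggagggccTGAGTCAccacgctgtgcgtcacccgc
Srxn1, nearer match (GRCm38.p6 chr2:152105459-152105505, plus strand, 45 to 39 bases before the start): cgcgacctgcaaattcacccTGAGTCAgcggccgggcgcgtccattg

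The differences between genotypes ran in both directions. In SOD1G93A nerves the ligase subunits Gclc and Gclm, catalase and both glutathione transferases had lower mean levels than in WT nerves, while Gsr, Srxn1, Hmox1 and Txnrd1 had higher ones and Nqo1 differed by -0.02. Gstt2 had the largest difference, -1.11 ± 0.16 (SE), which is 0.464 of the WT level. It was the 1 gene of the 10 called in the limma fit over all genes (Benjamini-Hochberg adjusted p under 0.05), against 0.163% of all genes called in either direction and 0.0912% called lower. Since the choice of genes used this comparison, nothing is read from that count. The median difference of the 10 genes was -0.12, with 6 lower and 4 higher, beside a median of -0.019 over all genes, 54.7% of which were lower. Without the arrays numbered 1 the median was -0.05, with 5 lower.

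Glutamate-cysteine ligase joins a catalytic subunit, Gclc, to a modifier subunit, Gclm, which relieves feedback inhibition by glutathione. Gclc levels were -1.55, -1.29, -1.23 and -1.23 in SOD1G93A replicates 1 to 4, against -0.66, -1.0, -1.10 and -1.0 in WT replicates 1 to 4. All SOD1G93A values lay below all WT values, and nerve was below the pool on all 8 arrays. The difference was -0.39 ± 0.12 (SE) and did not reach the call. On the 6 arrays numbered 2 to 4 it was -0.22 ± 0.07 (SE), again without overlap. Gclm levels were 0.16, 0.36, 0.49 and 0.34 in SOD1G93A nerves, against 0.70, 0.50, 0.67 and 0.39 in WT nerves. The groups overlapped, the lowest WT value lying inside the SOD1G93A range, and the difference was -0.23 ± 0.10 (SE). It was -0.12 ± 0.09 (SE) without replicate 1 of each genotype. Nerve was above the pool for Gclm and below it for Gclc on every array. Each subunit was read by 1 probe and the dyes were not swapped, so a dye bias of the probe cannot be told apart from these levels.

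Gsr encodes glutathione reductase, which uses NADPH to regenerate reduced glutathione. Its brighter probe gave 0.12, -0.27, -0.64 and -0.45 in SOD1G93A nerves, against -0.62, -0.47, -0.67 and -0.66 in WT nerves. The mean was higher by 0.29 ± 0.15 (SE), with overlap, and SOD1G93A replicate 1 lay above every other array and was the 1 array where nerve exceeded the pool. The other probe gave 0.32 ± 0.17 (SE) and followed the brighter one, with no array more than 0.08 from it. Without the arrays numbered 1 the difference was 0.15 ± 0.11 (SE).

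Srxn1, sulfiredoxin, restores peroxiredoxins whose active cysteine has been over-oxidised, and Txnrd1, cytosolic thioredoxin reductase, is a selenoprotein that keeps thioredoxin reduced. Srxn1 levels were 1.64, 1.76, 1.82 and 2.01 in SOD1G93A nerves, against 1.59, 1.57, 1.65 and 1.61 in WT nerves. SOD1G93A replicate 1 fell inside the WT range while the other SOD1G93A arrays lay above it, so the groups overlapped on 8 arrays and not on the 6 arrays numbered 2 to 4. The difference was 0.21 ± 0.09 (SE) on 8 arrays and 0.26 ± 0.08 (SE) on those 6. Txnrd1 levels were 0.75, 0.47, 0.41 and 0.33 in SOD1G93A nerves, against 0.52, 0.06, 0.41 and 0.41 in WT nerves, a difference of 0.14 ± 0.13 (SE) within the spread of the arrays.

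Hmox1 encodes the inducible heme oxygenase, which breaks heme down to biliverdin, iron and carbon monoxide, and macrophages are a known source of it. Its brighter probe, at chromosome 8, 77624207 to 77624266, gave 2.11, 2.10, 1.99 and 1.99 in SOD1G93A nerves, against -0.07, 1.85, 1.42 and 2.16 in WT nerves. SOD1G93A arrays were close together (SD 0.07), and WT arrays were spread widely (SD 0.99), with WT replicate 1 far below and WT replicate 4 above all others. The difference of 0.71 ± 0.40 (SE) became 0.22 ± 0.17 (SE) without the arrays numbered 1, and 0.24 when WT replicate 1 alone was left out. The dimmer probe, 3410 bases upstream by start, gave 0.85, 1.62, 1.45 and 1.77 in SOD1G93A nerves, against 0.53, 1.61, 1.33 and 1.53 in WT nerves. It put replicate 1 lowest in both genotypes, and its difference was 0.17 ± 0.26 (SE). On SOD1G93A replicate 1 the brighter probe exceeded the dimmer one by 1.26, and on WT replicate 1 it lay below it by 0.59 (-0.59). The probes therefore give different orders of the arrays, and the size of the Hmox1 difference is not settled by these data.

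Nqo1 encodes a quinone reductase and is among the most widely used readouts of Nrf2 activity. Its levels were 0.40, 0.73, 0.73 and 0.58 in SOD1G93A nerves, against 0.56, 0.53, 0.82 and 0.60 in WT nerves. The mean was 0.61 ± 0.16 in SOD1G93A and 0.63 ± 0.13 in WT nerves (SD, n = 4 each), a difference of -0.02 ± 0.11 (SE). Its sign turned in 8 of 21 other settings, which gave -0.06 to 0.12.

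**Figure D1:**
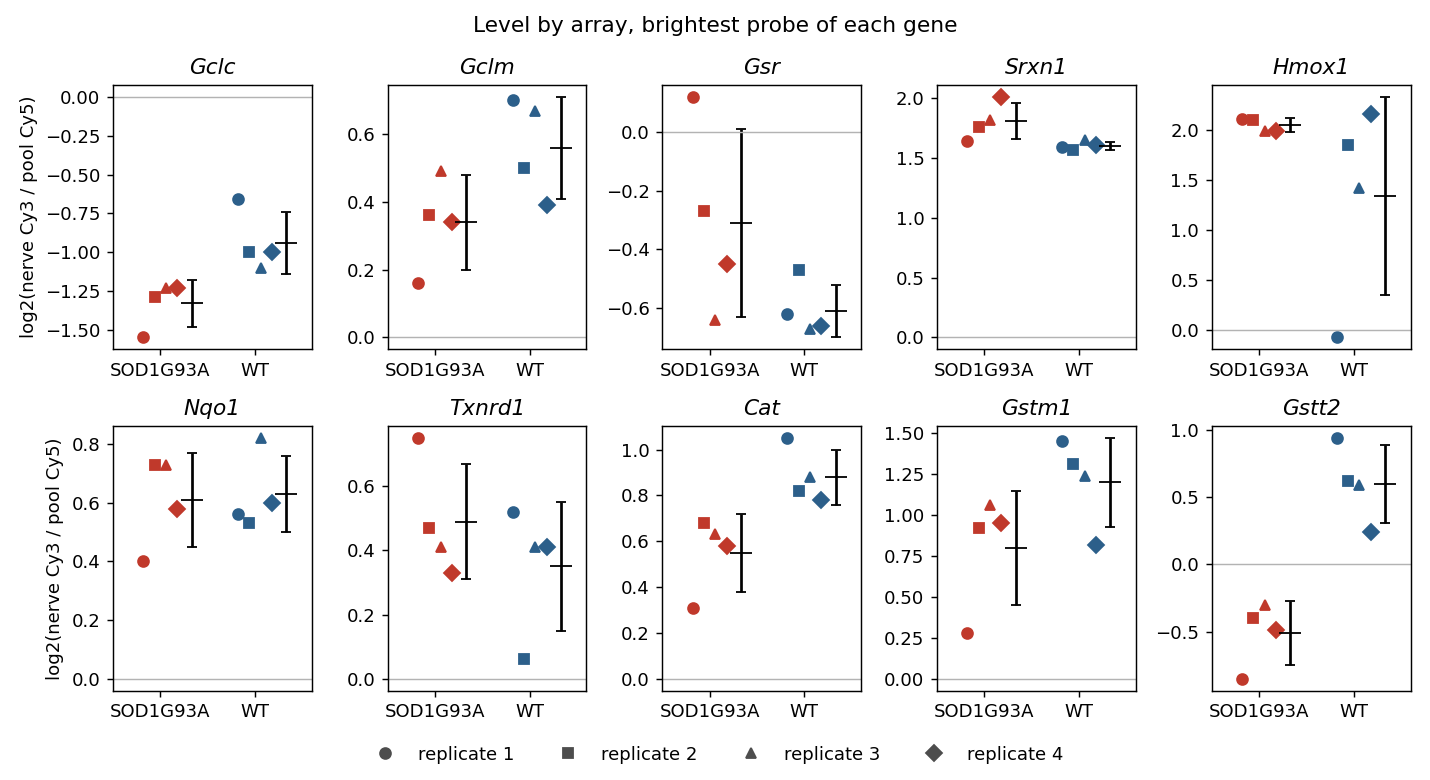
Log2 ratio of nerve (Cy3) to the neonatal pool (Cy5) on each array for the brightest probe of each gene, SOD1G93A left and WT right, with marker shapes for replicates 1 to 4 and a bar for the mean ± SD (n = 4). Each panel has its own vertical scale. Gclc, Cat and Gstt2 show no overlap between genotypes, and WT replicate 1 sits at -0.07 for Hmox1.

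Catalase, encoded by Cat, breaks down hydrogen peroxide in peroxisomes. Its brighter probe, on the minus strand of chromosome 2, 103294487 to 103294546, gave 0.31, 0.68, 0.63 and 0.58 in SOD1G93A nerves, against 1.05, 0.82, 0.88 and 0.78 in WT nerves. The groups did not overlap, and the difference was -0.34 ± 0.10 (SE), or -0.20 ± 0.07 (SE) on the arrays numbered 2 to 4. The dimmer, splice-spanning probe gave 0.51, 1.12, 1.04 and 0.91 in SOD1G93A nerves, against 1.41, 1.27, 1.27 and 1.02 in WT nerves. Its difference was -0.35 ± 0.14 (SE), with overlap at WT replicate 4. In the Cy3 channel alone, without the pool, the brighter probe differed by -0.10.

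Gstm1 encodes a mu-class glutathione transferase. Its brighter probe gave 0.28, 0.92, 1.06 and 0.95 in SOD1G93A nerves, against 1.45, 1.31, 1.24 and 0.82 in WT nerves. The genotypes overlapped, the difference was -0.40 ± 0.19 (SE), and without the arrays numbered 1 it was -0.15 ± 0.13 (SE). The other probe, on the minus strand of chromosome 3, 107815595 to 107815654, gave -0.50 ± 0.22 (SE) with the same order of extremes. The files place the brighter probe on chromosome 5, 117082490 to 117082549, whereas the RefSeq table places Gstm1 on chromosome 3. Mu-class genes are close paralogs, so these values may include related transcripts.

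Gstt2 encodes a theta-class glutathione transferase. Its levels were -0.85, -0.40, -0.30 and -0.49 in SOD1G93A nerves, against 0.94, 0.62, 0.59 and 0.24 in WT nerves. Every SOD1G93A array lay below the pool and every WT array above it, so the genotypes lay on opposite sides of it. Background-corrected Cy3 intensity was 173, 368, 374 and 340 in SOD1G93A nerves, against 1092, 644, 678 and 529 in WT nerves. These intensities are not normalized between arrays. The median over kept probes was 342.3 on SOD1G93A replicate 1 and 682.9 on WT replicate 1, so part of their gap is array brightness. On the 6 arrays numbered 2 to 4 the difference was -0.88 ± 0.12 (SE). It lay between -1.31 and -0.88 in 21 other settings, always lower in SOD1G93A nerves, and was called in 8 of them. The call was lost in 6 of the 8 fits that left out 1 array, the 2 that kept it being those without SOD1G93A replicate 1 or without WT replicate 4. Gstt2 was chosen with this comparison known, so these calls are a description.

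**Figure D2:**
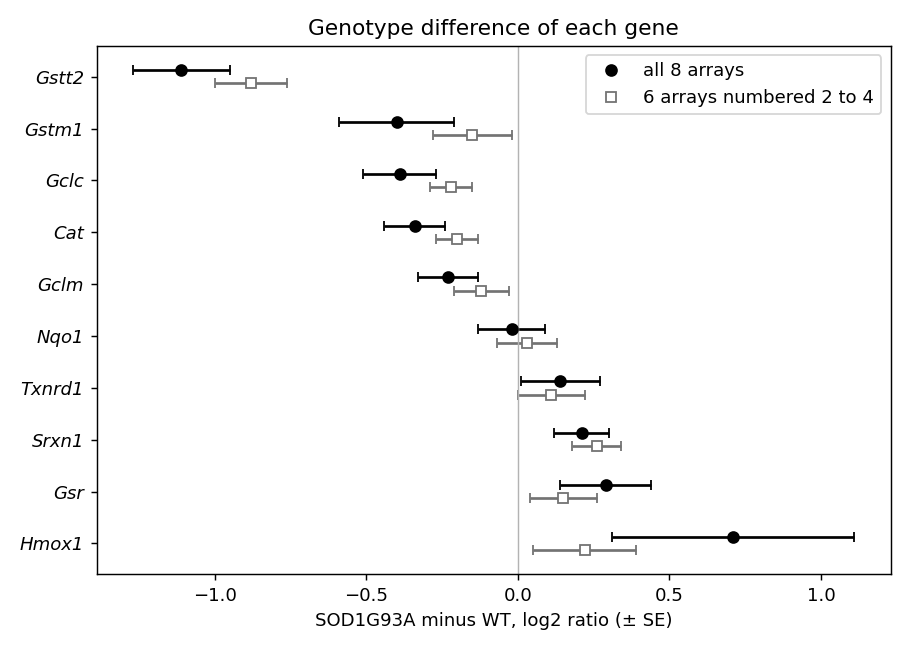
Difference between SOD1G93A and WT nerves (log2 ratio, ± SE from limma) for each gene on all 8 arrays (filled circles) and on the 6 arrays numbered 2 to 4 (open squares). Gstt2 stands at -1.11 and -0.88, and Hmox1 at 0.71 and 0.22.

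Of the 10 genes, 3 (Gclc, Cat and Gstt2) had groups that did not overlap, beside 7.98% of all genes. The choice of genes used this comparison, so the count is a description. The arrays that stood apart set the extremes of several of them. For Gclc, Gclm, Cat, Gstm1 and Gstt2, 5 of 10 genes, WT replicate 1 was the highest array and SOD1G93A replicate 1 the lowest, a pattern shown by 8.88% of all genes. SOD1G93A replicate 1 was the highest or lowest of the 8 arrays for 8 of 10 genes, and for 55.1% of all genes.

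Agreement between probes of a gene differed. Over the 8 arrays, after each probe's mean was removed, Gsr probes stayed within 0.08 of each other, Cat probes within 0.15 and Gstm1 probes within 0.16. Hmox1 probes parted by up to 0.95.

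**Figure D3:**
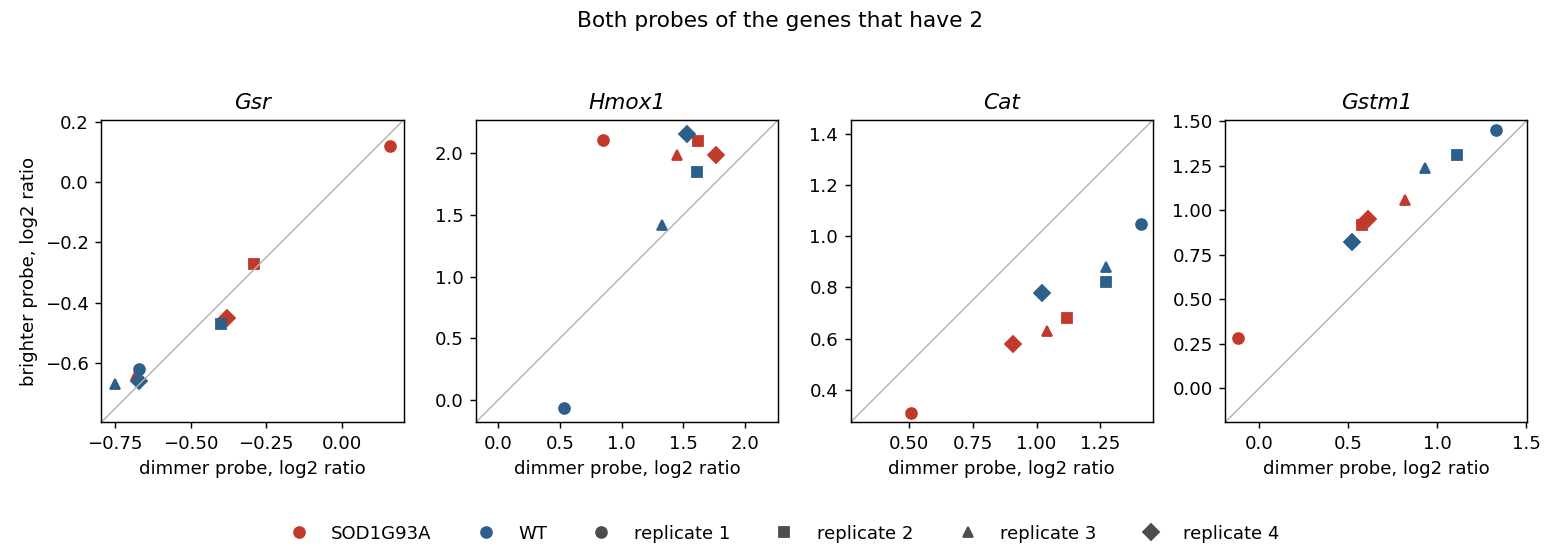
Log2 ratio of the brighter against the dimmer probe on each array for the 4 genes with both, SOD1G93A in red and WT in blue, with a line of equality. Around their mean gap, Gsr, Cat and Gstm1 probes part by at most 0.16 on any array, and the Hmox1 probes by up to 0.95.

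Levels relative to the neonatal organs were a mixture. By the brightest probe of each of the 10 genes, 6 were above the pool on all 8 arrays and 1, Gclc, was below it on all 8. The median over the 10 genes was 0.54, beside 0.07 over all genes. Srxn1 (mean 1.71, a 3.26-fold ratio) and Gstm1 (mean 1.00, a 2.00-fold ratio) were above the pool on every array with a mean past 1, 2 of 10 genes beside 13.7% of all genes. Gclc (mean -1.13) was below it on every array with a mean past -1, 1 of 10 genes beside 9.22% of all genes. Hmox1 had a mean of 1.70 but fell to -0.07 on WT replicate 1. Gstm1 sat at the threshold on its brighter probe. Its other probe had a mean of 0.72 and fell to -0.12 on SOD1G93A replicate 1, so it met neither condition. The dimmer Cat probe had a mean of 1.07 and was above the pool on every array, whereas the brighter one had a mean of 0.72. No level is a test, since this ratio was also known when the genes were chosen.

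Markers of other cell types also differed between genotypes, although limma called none of them. Endothelial markers were lower for 9 of 9 measured genes. Their scores (mean of centred log2 ratios) were -0.53 to -0.12 in SOD1G93A nerves and 0.03 to 0.53 in WT nerves, which do not overlap. Adipocyte markers were lower for 7 of 7, with scores of -1.57 to -0.09 in SOD1G93A nerves and -0.42 to 1.29 in WT nerves. Skeletal muscle markers were lower for 6 of 6, at -1.09 to -0.81 in SOD1G93A nerves and -0.74 to 3.02 in WT nerves, which do not overlap either. Muscle scores of WT replicates 1 and 2 were 3.02 and 2.19, and those of WT replicates 3 and 4 were -0.74 and -0.60. Smooth muscle and pericyte markers were lower for 7 of 8, at -0.67 to -0.27 in SOD1G93A nerves and -0.35 to 1.09 in WT nerves.

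Macrophage markers were higher for 8 of 8 measured genes, with scores of 0.42, 0.48 and 0.71 on SOD1G93A replicates 2 to 4. SOD1G93A replicate 1 scored -0.48, within the WT range of -0.51 to -0.19. On that array the brighter Hmox1 probe was at 2.11, the highest SOD1G93A value, and the dimmer one at 0.85, the lowest. Cd163 was not well above background on any array. Schwann cell markers were higher for 9 of 10 genes, with a median difference of 0.12 that became -0.14 on the 6 arrays numbered 2 to 4. The fibroblast median went from -0.04 to 0.02 there, while medians of the other nerve cell type lists kept their sign. Schwann cell scores were -0.12 to 0.46 in SOD1G93A nerves and -0.30 to 0.16 in WT nerves, the highest on SOD1G93A replicate 1 and the lowest on WT replicate 1. Fibroblast scores overlapped, at -0.35 to 0.25 in SOD1G93A nerves and -0.22 to 0.18 in WT nerves. Red blood cell scores did too, at -0.16 to 0.29 in SOD1G93A nerves and -0.28 to 0.15 in WT nerves. Of the muscle markers, Mylpf was not well above background on any array. Apart from the values given, the part of these cell types in the differences was not tested.

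**Figure D4:**
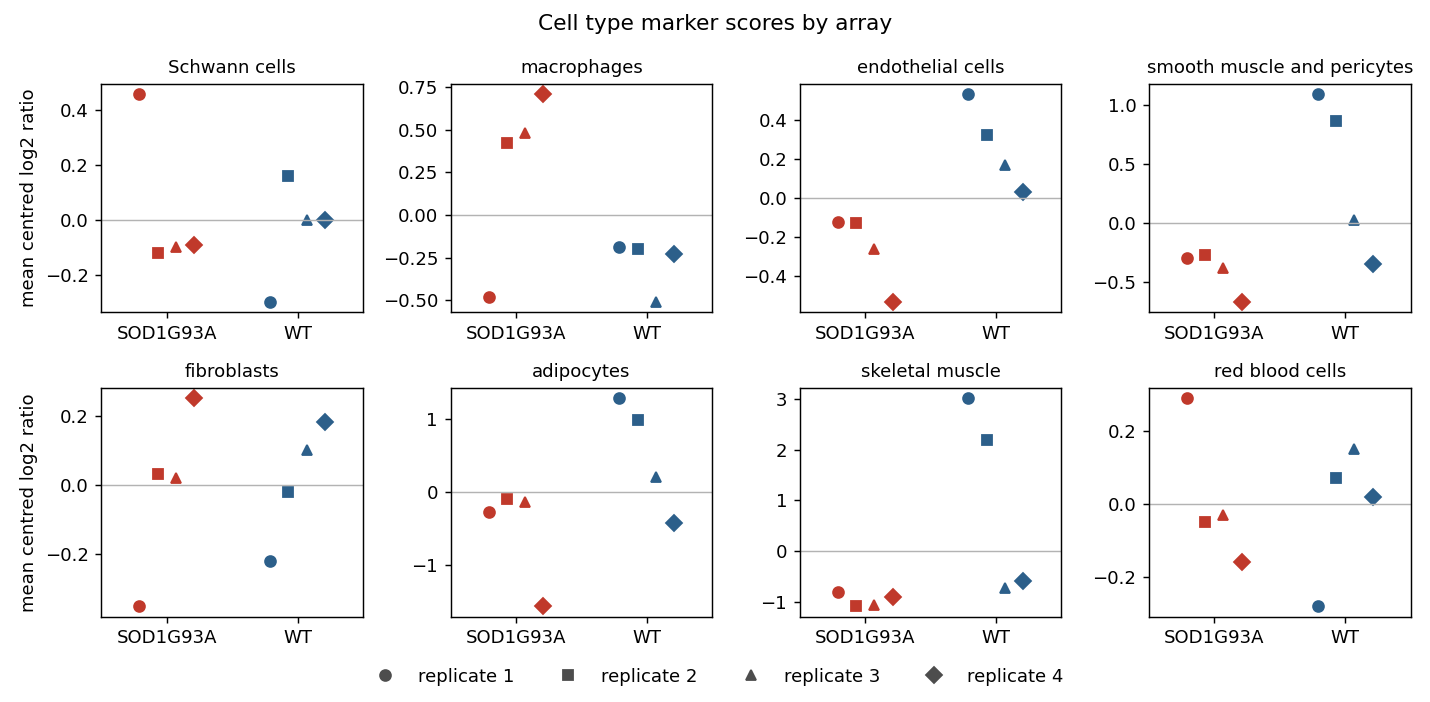
Mean of log2 ratios, each gene centred on its mean over 8 arrays, for 8 lists of cell type markers, SOD1G93A left and WT right, with marker shapes for replicates 1 to 4. Endothelial and skeletal muscle scores do not overlap between genotypes, and muscle scores of WT replicates 1 and 2 (3.02 and 2.19) lie far above the rest.

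Beyond these 10, 92 other genes of the pathway were listed by role, of which 85 were measured. None of the 85 was called in the limma fit, while 12 had an unadjusted p under 0.05, which is 14.1% of them beside 11.4% of all genes (1750 of 15343). Of the 85, 57 were lower and 28 higher, with a median of -0.06, and 45 were lower on the 6 arrays numbered 2 to 4.

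In glutathione synthesis, breakdown and precursor supply, 0 of 11 measured genes were called, 8 being lower (median -0.05). Chac1, which degrades glutathione in the cytosol, averaged -0.24 ± 0.31 in SOD1G93A and 1.11 ± 0.49 in WT nerves (SD, n = 4 each), a difference of -1.36 ± 0.24 (SE, limma adjusted p = 0.0825) without overlap. Its signal passed the background test on 2 of 4 SOD1G93A and 4 of 4 WT arrays. Oplah, which recycles 5-oxoproline to glutamate, gave -0.26 ± 0.15 (SE, limma adjusted p = 0.556).

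In peroxide and disulfide reduction, 0 of 24 were called, 17 being lower (median -0.08). Txnip, which binds and inhibits thioredoxin, averaged -1.22 ± 0.35 in SOD1G93A and -0.08 ± 0.35 in WT nerves (SD, n = 4 each). Its difference was -1.14 ± 0.21 (SE, limma adjusted p = 0.0839) without overlap, and in the Cy3 channel alone it was called at -1.12 (limma adjusted p = 0.0364). Txnrd3, a testis-enriched thioredoxin and glutathione reductase, gave -0.36 ± 0.08 (SE, limma adjusted p = 0.131), also without overlap.

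Glutathione transferases outside the 10 genes had 16 of 19 members lower and 0 called, with a median of -0.33. On the 6 arrays numbered 2 to 4 that median was -0.04, with 13 lower. Gstz1, which acts in tyrosine breakdown, gave -0.68 ± 0.22 (SE, limma adjusted p = 0.299), and the mu-class gene Gstm6 gave -0.61 ± 0.21 (SE, limma adjusted p = 0.326). Gstm6 was called on those 6 arrays, at -0.77 (limma adjusted p = 0.0226), where 234 of 15343 genes were called. The value is from the brightest of its 3 kept probes, and may include transcripts of close mu-class paralogs. Endothelial, smooth muscle and pericyte, adipocyte and skeletal muscle marker scores were highest on WT replicate 1 (0.53, 1.09, 1.29 and 3.02). The part of these cell types in the transferase median was not tested.

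Other Nrf2 target enzymes and transporters had 0 of 21 called and 14 lower (median -0.05), within -0.38 to 0.17. The glutathione conjugate exporter Abcc1 gave -0.38 ± 0.11 (SE, limma adjusted p = 0.26), and the NADPH-producing enzyme Idh1 gave -0.24 ± 0.10 (SE, limma adjusted p = 0.391). Nrf2 and its regulators had 0 of 10 called, 8 being higher, with a median of 0.04. The small Maf partner Maff averaged -1.38 ± 0.26 in SOD1G93A and -1.98 ± 0.26 in WT nerves (SD, n = 4 each). Its difference was 0.60 ± 0.16 (SE, limma adjusted p = 0.206), with WT levels well above background on 3 of 4 arrays. Bach1, a repressor of Hmox1, gave 0.16 ± 0.11 (SE, limma adjusted p = 0.627).

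**Figure D5:**
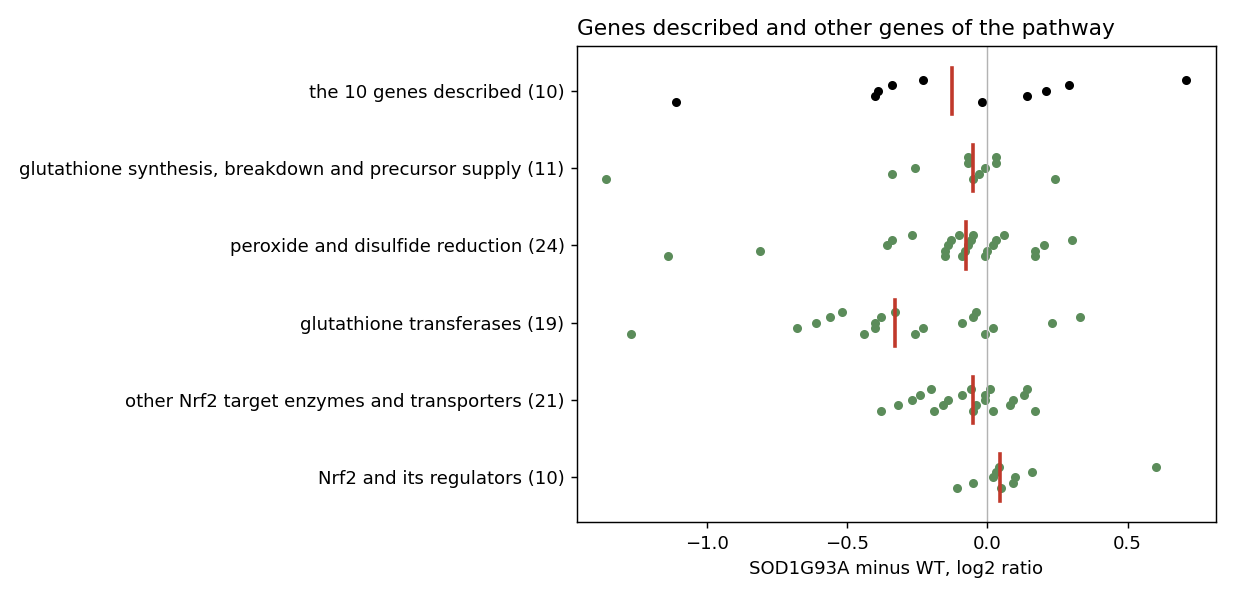
Difference between SOD1G93A and WT nerves (log2 ratio) for the 10 genes described and for measured genes of 5 other lists of the pathway, with the number of genes in brackets, 1 dot per gene and a red bar at each median. Transferases have the lowest median, -0.33, and the regulators the highest, 0.04.

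Among 15317 other genes complete on all arrays, those most like Gstt2 over the 8 arrays by Pearson correlation of log2 ratios were the transcription factor gene Mef2d (0.992), an intergenic noncoding RNA probe on chromosome 14 (0.986) and the opsin gene Opn3 (0.985). Those most like Gclc were Scfd2 (0.989), Kcnab1 (0.98) and St3gal6 (0.975), and those most like Hmox1 were Hist3h2ba (0.978), Map1b (0.97) and Zfp316 (0.97). These are the highest of many correlations over arrays that share a pool and a slide, and include the genotype difference itself, so they are a description with no test.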

How the data were processed

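The deposited scanner files hold linear spot and local background intensity for both dyes. Their headers give Feature Extraction version 11.5.1.1, whereas the submitters' processing notes give 11.0.1.1, and also list limma without saying where it was used. The values in the authors' series table are log10 ratios, red over green, equal to the scanner files' own on every spot, with a median of 0 per array and 31.8% to 35.5% of values at exactly 0. Other deposited columns are flags.

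Mean intensity and median local background were corrected by normexp (offset 50) and normalized by loess within arrays, with control spots at no weight and no scaling between arrays. Outlier spots were left out, and spots of a probe averaged. The filter asked for a Cy3 signal well above background on at least 4 arrays, which 19838 of 55681 probes met. A gene name was represented by the brightest such probe. Log2 ratios of Cy3 over Cy5 in SOD1G93A and WT nerves were compared by limma 3.58.1 (lmFit, eBayes, 2-sided; R 4.3.3, with the data.table package, version 1.17.8). P-values were adjusted by Benjamini-Hochberg over 15343 genes, and those under 0.05 were called. The replicates are separate samples per the labels, and their number limits the precision. The procedure was tested on simulated data.

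The 10 genes, the pathway and marker lists and the alternatives were chosen with earlier results of these data known. From each pathway list the text names called genes and the measured genes with the smallest p, and for Gstt2, Gclc and Hmox1 the 3 most correlated genes. Alternatives covered background correction, normalization, the Cy3 channel alone, the filter, a replicate block, array weights, the variance prior, the probe rule, the series table and leaving out arrays.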

Additional observations from a re-analysis of the deposited data

Results flagged for a closer look

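In groups of 4 arrays, a value was set aside for a closer look where its gap to the nearest array took more of the group's range than Dixon's critical value allows. Of 50 groups tested, 4 held such a value, and chance gives about 1 in 20. None was a level of the 10 genes described. SOD1G93A replicate 1 had a Schwann cell score of 0.46, against -0.12 to -0.09 on the other SOD1G93A arrays. Its score for heart markers, which the pool holds, was 0.31, against -0.14 to -0.08. SOD1G93A replicate 4 had an adipocyte score of -1.57, against -0.27 to -0.09. WT replicate 3 had a macrophage score of -0.51, against -0.23 to -0.19 on the other WT arrays.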

How the results depend on the processing

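The count of genes called, 25, was 7 from the scanner's processed signals, 7 from the series table, 1 with median centring, 1 with the replicate block, 16 with no filter, 432 with array weights, 234 on the 6 arrays numbered 2 to 4, and 3 to 180 when 1 array was left out. The count among the 10 genes, 1, was 0 with Agilent processed signals, the series table, median centring, scale normalization, the Cy3 channel alone, no filter and the replicate block, and 0 to 1 when 1 array was left out. The count among the other pathway genes, 0, was 1 in the Cy3 channel alone, 5 with array weights, 1 on the 6 arrays and 0 to 1 when 1 array was left out. The median difference of the 10 genes was -0.022 in the Cy3 channel alone and -0.17 to -0.06 when 1 array was left out. The count above the pool with a mean past 1, 2, was 1 with Agilent processed signals, the series table and no background subtraction. It was 3 on the 6 arrays numbered 2 to 4, and 1 to 2 when 1 array was left out. Of 210 differences of single genes, 209 moved by less than the spread of replicates, the exception being Cat in the Cy3 channel alone. Of 200 levels over the pool, 196 did so, the exceptions being Gclm (0.778, against 0.45) and Nqo1 (0.952, against 0.62), each with the scanner's processed signals and with the series table. For a difference, the spread was the gene's own SD within genotypes, with the arrays numbered 1 included. Hmox1 (WT SD 0.99) therefore counted as unmoved on the 6 arrays, at 0.22 against 0.71. Gstm1 did too, at -0.15 against -0.40. The count of 209 thus does not show that the differences are stable. Every gene but Nqo1 kept its sign in all 21 alternatives. The sample titles do not say whether replicate numbers pair the samples. Deviations of same-numbered arrays correlated at -0.164, 0.04, -0.113 and 0.102. These values cannot settle the pairing, since arrays with different numbers were not compared. With the replicate block, Gstt2 kept its difference of -1.11 and was not called (limma adjusted p = 0.184). The cause of the changes between settings was not tested. Dim signal limits Chac1 and Maff.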
